A study of Mus musculus with 6 samples.

Results

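The miR-29 family was followed through both arms of its hairpins in small RNA from mouse brain cortex. The members were the 6 rows of the deposited table named for the guide (3p) products mmu-miR-29a-3p, mmu-miR-29b-3p and mmu-miR-29c-3p and the passenger (5p) products mmu-miR-29a-5p, mmu-miR-29b-1-5p and mmu-miR-29c-5p (mmu, for mouse, is left off from here on), out of 1182 rows in all. Rows were matched by name alone and no measured value entered the rule, but the members were chosen with earlier results of these data known. Small RNA was sequenced from the cortex of adult males in 6 libraries, 3 labelled Fmr1 KO (knockout) and 3 labelled Fmr1 WT (wild type), age-matched and untreated. Fmr1 encodes FMRP, an RNA-binding protein of neurons that controls translation. The comparison asks which microRNAs (miRNAs) differ in level in cortex without it. The sources used here give no strain, allele or exact age, and Fmr1 messenger RNA is not measured by this assay, so the genotype labels could not be checked. The labels call the libraries biological replicates without tying each to a separate animal, so p-values measure the spread between these libraries.

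The family's background is well known. A hairpin is cut by Drosha and Dicer into a short duplex, 1 strand of which, the guide, is kept by Argonaute and pairs with messenger RNAs through its seed, while the other strand is mostly degraded. The miR-29 guides repress collagens and other matrix genes, DNA methyltransferases and, in mouse neurons, pro-apoptotic BH3-only genes, and they accumulate as the brain matures. They are also known from astrocytes. In vertebrate brain miR-29b is an established case of target-directed decay, in which pairing with the Nrep transcript in mouse, or its relative libra in zebrafish, destroys the miRNA.

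The guides are shown first because their sequences decide which reads can be told apart. Each is written 5′ to 3′ from RefSeq (build GRCm38.p6), with the seed, bases 2 to 8, in capitals.
miR-29a-3p: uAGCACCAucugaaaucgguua
miR-29b-3p: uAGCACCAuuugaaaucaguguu
miR-29c-3p: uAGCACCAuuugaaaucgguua
The 3 guides share the seed AGCACCA, which no other mature mouse miRNA in the reference table has. Counting from 1 at the 5′ end, miR-29a-3p and miR-29c-3p have the same length and differ by the single substitution C10U. From miR-29c-3p to miR-29b-3p the substitutions are G18A, U21G and A22U, and miR-29b-3p is 1 base longer. The sources used here do not say how many mismatches were allowed or how reads that match several miRNAs were counted. Reads of miR-29a-3p and miR-29c-3p may therefore be exchanged by 1 sequencing error at that base. Some other rows hold the same values, such as miR-467a-5p and miR-467b-5p, with log2 differences from the WT mean of 0.59, 0.48 and -1.18 in the KO libraries. Some reads were thus probably counted in more than 1 row. The last 6 bases of miR-29b-3p, AGUGUU, are known as an element linked to nuclear import of this miRNA in human cells. Among the 970 miRNAs of the deposited table that have a sequence in the reference, 2 end in it, miR-29b-3p and miR-92b-5p.

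The passenger products share no seed, but some are much alike once their starts are shifted. With a shift of 1 base, miR-29b-1-5p and miR-29b-2-5p differ at few bases, and their seeds CUGGUUU and UGGUUUC overlap. The passenger products are shown because the values below depend on which arm of a hairpin was read.
miR-29a-5p: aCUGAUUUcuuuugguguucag
miR-29b-1-5p: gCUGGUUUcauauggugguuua
miR-29c-5p: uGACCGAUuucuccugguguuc
miR-29b-2-5p: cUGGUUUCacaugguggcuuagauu
The last of these, from the other miR-29b hairpin, is not a member and is given where the arms of miR-29b are described.

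The hairpins form 2 pairs on GRCm38. On chromosome 6 (minus strand) lie Mir29a at 31062660 to 31062747 and Mir29b-1 at 31063023 to 31063093, 275 bases apart. In the GENCODE M21 annotation Mir29a lies outside other genes, and Mir29b-1 overlaps by 2 bases an exon of the long noncoding RNA gene Gm27019. On chromosome 1 (plus strand) lie Mir29b-2 at 195037040 to 195037120 and Mir29c at 195037547 to 195037634, 426 bases apart. Both of these lie whole within an exon of the noncoding transcript A330023F24Rik, and opposite an untranslated exon of Cd46, a complement regulator. Whether strand was used in counting is not stated in the labels or notes. However, miR-24-3p and the antisense miR-3074-5p had almost the same log2 differences from the WT mean in the KO libraries. These were 0.112, 0.120 and 0.245 for miR-24-3p and 0.113, 0.121 and 0.244 for miR-3074-5p, so strand did not separate these rows. Reads from the Cd46 strand may thus be counted in rows of Mir29b-2 and Mir29c products, which was not tested. miR-29b-3p is identical from Mir29b-1 (31063025 to 31063047) and Mir29b-2 (195037091 to 195037113), so its reads cannot be assigned to a locus. Its passengers differ in sequence and have a row each. As they differ at few bases and the mismatch rules are not stated, some of their reads may be exchanged. This would weigh most on the rarely read miR-29b-1-5p. miR-29a-3p is encoded at 31062673 to 31062694 and miR-29c-3p at 195037600 to 195037621.

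Libraries held 11182888 to 14385332 miRNA reads in KO and 13225790 to 15733876 in WT. Levels below are CPM, the count relative to a library size scaled by the trimmed mean of M-values (TMM). Neuron-enriched miRNAs summed to between 120100 and 141300 CPM in KO and between 130800 and 143800 CPM in WT. Replicates were further apart in KO than in WT, with a median SD of log2 CPM of 0.404 in KO and 0.141 in WT over the 541 miRNAs that passed the count filter. Of the 6 members, 5 passed this filter and miR-29b-1-5p did not.

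miR-29a-3p carried most of the family's guide reads in every library. Its share was 92.6, 92.7 and 86.6% in the KO libraries and 92.8, 93.3 and 92.9% in the WT libraries. miR-29b-3p took 6.27, 6.11 and 11.04% of guide reads in KO and 6.10, 5.65 and 5.96% in WT. The share of miR-29a-3p was lower and that of miR-29b-3p higher in each KO library than in any WT library, by small margins except in KO replicate 3. miR-29c-3p held the least, with 1.10, 1.15 and 2.40% in KO and 1.10, 1.10 and 1.15% in WT. By mean level over all libraries, miR-29a-3p was 47th, miR-29b-3p 136th, miR-29c-5p 180th, miR-29c-3p 243rd and miR-29a-5p 347th of the 541 tested miRNAs, with miR-29b-1-5p below the filter. In WT no pair of neighbours in this order overlapped. In KO, miR-29c-5p overlapped with both of its neighbours, miR-29b-3p and miR-29c-3p, through KO replicate 3. Ligation efficiency differs between sequences, so levels of different miRNAs are comparable only roughly, and no length correction applies to reads of whole miRNAs.

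Counted in reads, miR-29a-3p had 16717, 16729 and 23746 in the KO libraries and 23730, 22719 and 22025 in the WT libraries. In CPM this was 1141, 1407 and 1957 in the KO libraries, against 1555, 1673 and 1449 in the WT libraries. KO replicates 1 and 2 lay below every WT library and KO replicate 3 above every one, so the groups overlapped. The KO libraries averaged 1502 ± 416 CPM, against 1559 ± 112 CPM for the WT libraries (± SD, n = 3 per genotype). The log2 fold change of KO relative to WT was -0.05 (SE 0.21, 95% interval -0.53 to 0.42, adjusted p = 0.936, edgeR quasi-likelihood test).

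miR-29b-3p, the guide made at both loci, had 77.3, 92.8 and 249.6 CPM in the KO libraries, against 102, 101 and 92.9 CPM in the WT libraries. KO replicate 3 stood above all others, while KO replicate 1 was below every WT library and KO replicate 2 level with the lowest of them. The KO libraries averaged 139.9 ± 95.3 CPM, against 98.8 ± 5.12 CPM for the WT libraries (± SD, n = 3 per genotype), for a log2 fold change of KO over WT of 0.50 (SE 0.42, interval -0.45 to 1.45, edgeR adjusted p = 0.791). Without KO replicate 3 the fold change was -0.20 on the log2 scale.

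miR-29c-3p had a like pattern, with 13.6, 17.5 and 54.2 CPM in the KO libraries, against 18.5, 19.7 and 17.9 CPM in the WT libraries. Here too KO replicate 3 was above and KO replicate 1 below every WT library, with KO replicate 2 close to the lowest of them. The KO libraries averaged 28.4 ± 22.4 CPM, against 18.7 ± 0.900 CPM for the WT libraries (± SD, n = 3 per genotype), and the log2 fold change of KO over WT was 0.60 (SE 0.47, 95% interval -0.49 to 1.69, edgeR adjusted p = 0.791). Without KO replicate 3 it was -0.25. On the log2 CPM scale, miR-29c-3p had an SD of 1.06 over KO and 0.069 over WT libraries, and miR-29b-3p one of 0.910 over KO and 0.076 over WT libraries. Summed, the 3 guides gave 1232, 1517 and 2261 CPM in the KO libraries, against 1676, 1794 and 1559 CPM in the WT libraries, with means of 1670 ± 531 over the KO libraries, against 1676 ± 117 over the WT libraries (± SD, n = 3 per genotype).

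**Figure D1:**
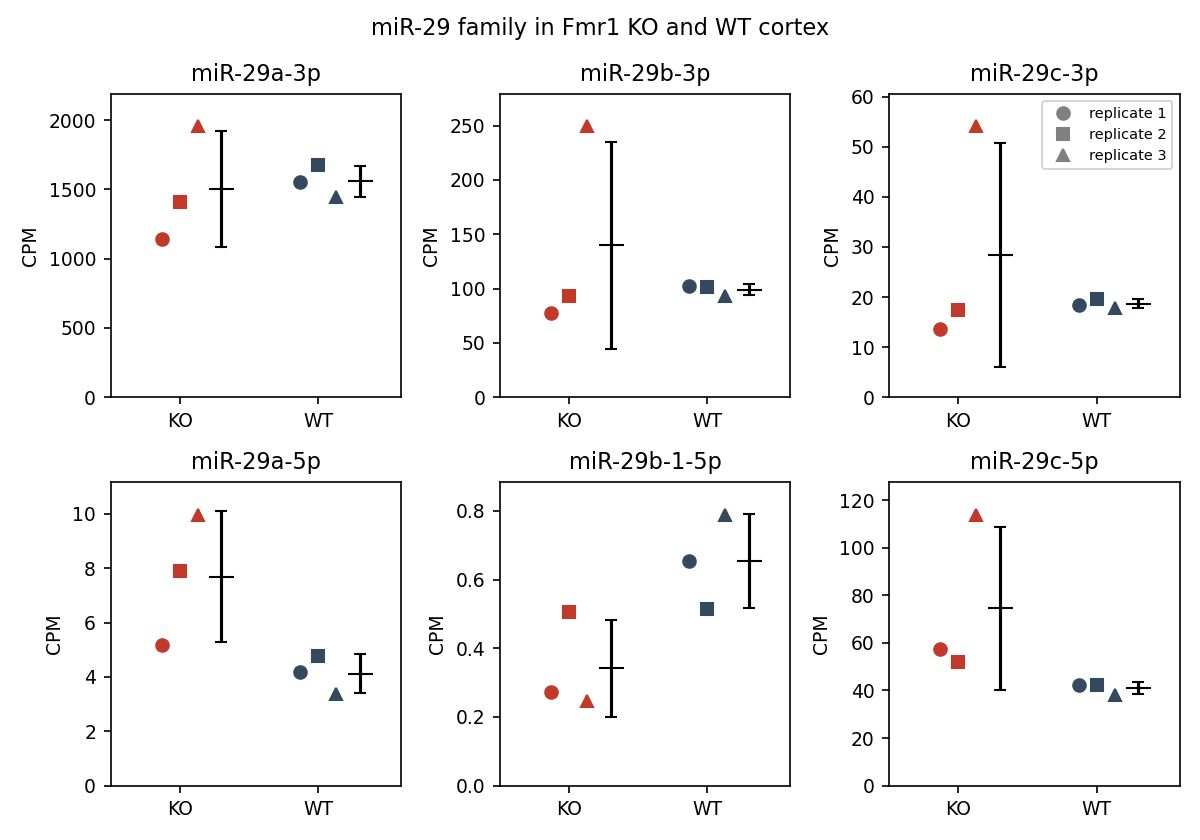
Level of each miR-29 member in CPM (vertical axes, each from 0) in the 3 KO and 3 WT libraries. Points are libraries and bars the mean ± SD. The guides of KO replicate 3 stand highest, and both miR-29a-5p and miR-29c-5p are higher in each KO library than in any WT library, for miR-29c-5p under TMM but not on total counts.

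The passengers miR-29a-5p and miR-29c-5p had higher TMM-scaled values in every KO library than in any WT library, which for miR-29c-5p did not hold on total counts. miR-29c-5p had 844, 619 and 1382 reads in KO and 648, 575 and 581 reads in WT. On the CPM scale this was 57.6, 52.1 and 114 in the KO libraries, against 42.5, 42.3 and 38.2 in the WT libraries, so the groups did not overlap. Scaled by total counts instead, it had 62.9, 43.0 and 123.6 in the KO libraries, against 43.7, 43.5 and 36.9 in the WT libraries, and KO replicate 2, whose TMM factor was the lowest (0.8265), lay within the WT range. The KO libraries averaged 74.5 ± 34.2 CPM, against 41.0 ± 2.42 CPM for the WT libraries (± SD, n = 3 per genotype), and the log2 fold change of KO over WT was 0.86 (SE 0.30, 95% interval 0.17 to 1.55). The unadjusted p was 0.0207 and the adjusted p 0.698 (edgeR), so it did not pass. Without KO replicate 3 the log2 fold change was 0.43 and the adjusted p 0.105. With each library left out in turn, the edgeR adjusted p ran from 0.105 to 0.978.

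miR-29a-5p is a rare product, with 76, 94 and 121 reads in KO and 64, 65 and 51 reads in WT. It stood at 5.19, 7.91 and 9.97 CPM in the KO libraries, against 4.19, 4.79 and 3.35 CPM in the WT libraries. The groups did not overlap under TMM or any of 3 other scalings, although KO replicate 1 was close to WT replicate 2. The KO libraries averaged 7.69 ± 2.40 CPM, against 4.11 ± 0.719 CPM for the WT libraries (± SD, n = 3 per genotype), for a log2 fold change of KO over WT of 0.90 (SE 0.30, interval 0.23 to 1.57, unadjusted p = 0.0149, adjusted p = 0.694, edgeR). Without KO replicate 3 the log2 fold change was 0.69 and the adjusted p 0.182. With each library left out in turn, the edgeR adjusted p ran from 0.132 to 0.978.

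miR-29b-1-5p was at the limit of detection, with 4, 6 and 3 reads in KO and 10, 7 and 12 reads in WT. Over each genotype this is 13 reads in KO (exact 95% Poisson interval 6.92 to 22.2) and 29 in WT (19.4 to 41.6), and these intervals cover counting error only. No KO library reached the level of any WT library (0.273, 0.505 and 0.247 CPM in KO, 0.655, 0.515 and 0.789 CPM in WT), but KO replicate 2 and WT replicate 2 differed by 1 read, and these overlapped when TMM left out the 5 most abundant miRNAs. It was below the count filter of the main test. Without that filter its log2 fold change was -0.92 (edgeR adjusted p = 0.793 over 1182 miRNAs). The passenger of the other hairpin, miR-29b-2-5p, was read more often, with 5.32, 4.29 and 3.87 CPM in the KO libraries, against 4.33, 5.30 and 5.52 CPM in the WT libraries (log2 fold change -0.16, SE 0.24, 95% interval -0.72 to 0.39, edgeR adjusted p = 0.882).

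No member passed the adjusted threshold of 0.05, and 0 of 541 miRNAs (0%) did in edgeR, 0 of 541 in limma-voom and 0 of 1182, without the count filter, in DESeq2. Of the 5 tested members, 2 had an unadjusted p under 0.05, both higher in KO, against 35 of 541 miRNAs (6.47%) in edgeR, of which 18 (3.33%) were higher in KO. Limma-voom gave 34 such miRNAs of 541 and DESeq2 40 of 1182. The same 2 members had groups that did not overlap, against 85 of 541 (15.7%), and in 28 of 541 (5.18%) the KO libraries were the higher ones. On total counts 1 of the 5 members, miR-29a-5p, had groups that did not overlap, against 64 of 541 miRNAs (11.8%). Without KO replicate 3, 18 of 560 miRNAs passed the adjusted threshold, none of them a member. Positive log2 fold changes were found for 4 of the 5 members and for 284 of 541 miRNAs (52.5%). The median log2 fold change was 0.60 over the 5 members and 0.03 over all tested miRNAs. These 5 share hairpins, reads and libraries and are not independent of each other.

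**Figure D2:**
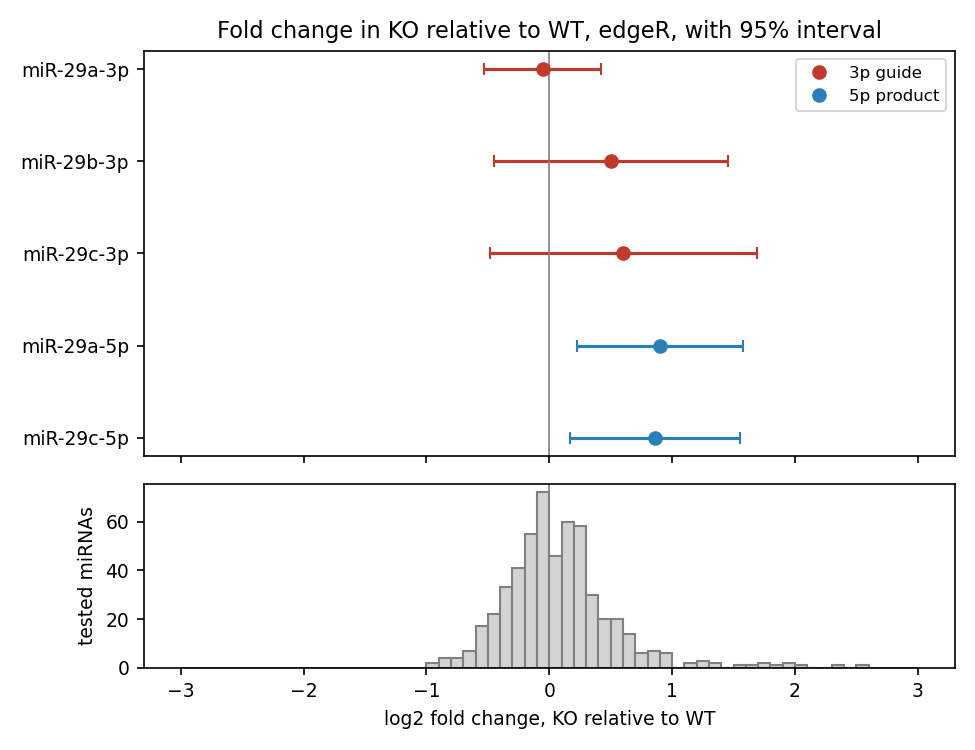
Log2 fold change of KO relative to WT (horizontal axis) for the 5 tested members, with 95% intervals from edgeR (top), above the number of tested miRNAs at each fold change (bottom). The intervals of the 3 guides include 0, and those of miR-29a-5p and miR-29c-5p, before adjustment for 541 tests, do not.

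Because both arms are counted in the same library, their ratio does not depend on how libraries are scaled. For miR-29a the 5p arm made up 0.453, 0.559 and 0.507% of reads in the KO libraries and 0.269, 0.285 and 0.231% in the WT libraries. The guide outnumbered the passenger by 220, 178 and 196 to 1 in KO and by 371, 349.5 and 432 to 1 in WT. Every KO library thus had relatively more passenger than every WT library, with replicates of either genotype close together. The difference in log2 ratio of 5p to 3p was 0.95 (SE 0.23, interval 0.40 to 1.497), with an unadjusted p of 0.00453 and an adjusted p of 0.394 in limma over the 174 hairpins with both arms tested. This was the smallest p of the 174, and it did not pass the adjusted threshold. Without KO replicate 3 the difference was 0.95 as well (adjusted p = 0.246). With each library left out in turn, the limma adjusted p ran from 0.246 to 0.934.

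For miR-29c the 5p product was the more often read arm in all libraries, so its name of passenger does not follow read counts here. Ligation efficiency differs between sequences, and reads of miR-29c-3p may be exchanged with those of miR-29a-3p, so the arms compare only roughly. The 5p product made up 80.9, 74.8 and 67.8% of reads in KO and 69.7, 68.3 and 68.1% in WT. KO replicates 1 and 2 lay above the WT libraries and KO replicate 3 just below them. The difference in log2 ratio was 0.44 (SE 0.31, interval -0.28 to 1.17, limma adjusted p = 0.801), and without KO replicate 3 it was 0.69 (adjusted p = 0.246). With each library left out in turn, the limma adjusted p ran from 0.246 to 0.995. More 5p than 3p reads were found in 93 of the 174 hairpins, and miR-29c had 78 hairpins above it in this ratio. miR-29a was near the other extreme, with a lower ratio in 6 hairpins. These hairpins are not all distinct. Some share an arm, as let-7a-1 and let-7a-2 do, and some hold mirrored ratios, with KO means of -5.66 for miR-24-2 and 5.67 for miR-3074-2. Rows that hold the same reads also occur among the tested miRNAs.

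For miR-29b both passengers were set against the shared guide. The 5p reads of both hairpins together were 6.75, 4.91 and 1.62% of miR-29b reads in KO and 4.65, 5.43 and 6.36% in WT. KO replicate 3 was far below the other libraries, and there the guide was highest and the passengers lowest in reads. miR-29b-2-5p supplied 95.1, 89.5 and 94.0% of these 5p reads in KO and 86.8, 91.1 and 87.5% in WT. The log2 ratio of miR-29b-2-5p to miR-29b-3p differed by -0.47 between genotypes (SE 0.54, limma adjusted p = 0.832), and by 0.15 without KO replicate 3. For miR-29b-1, tested with a looser filter over 218 hairpins, the difference was -1.19 (SE 0.62, limma adjusted p = 0.557). Over all 174 hairpins, 0 passed the adjusted threshold (0%), 15 had an unadjusted p under 0.05 (8.62%), and 27 had groups that did not overlap (15.5%), 13 of them higher in KO (7.47%). Of the 3 miR-29 ratios among them, only that of miR-29a had an unadjusted p under 0.05 or groups that did not overlap.

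**Figure D3:**
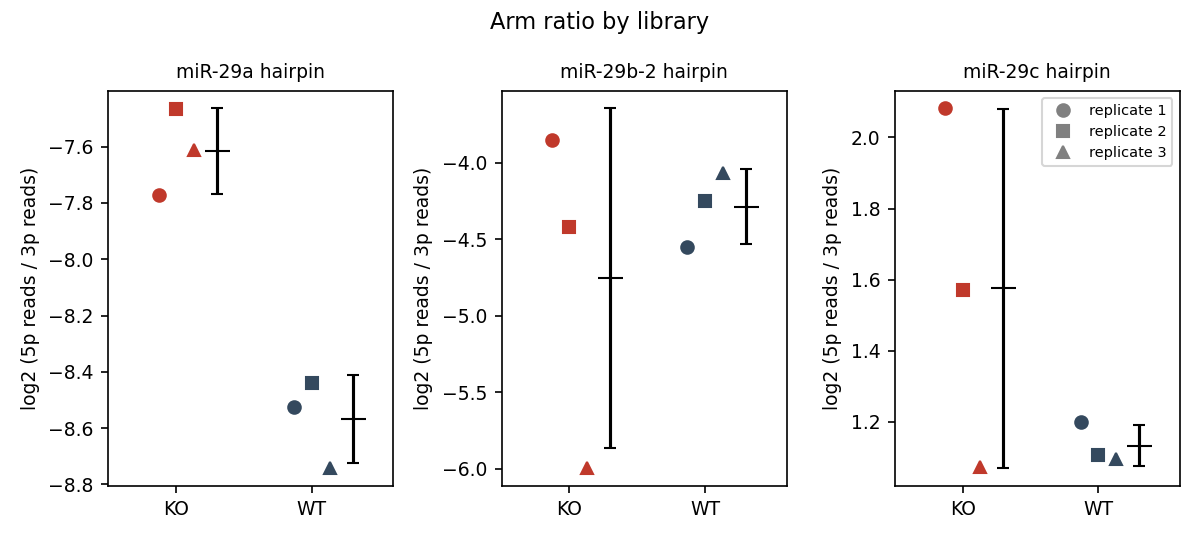
Log2 ratio of 5p to 3p reads (vertical axes, which differ between panels) in each KO and WT library, for the miR-29a, miR-29b-2 and miR-29c hairpins. Points are libraries and bars the mean ± SD. The miR-29a ratio is higher in the 3 KO libraries, and the other ratios overlap.

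The members moved unequally within KO replicate 3. Relative to the WT mean, its log2 CPM was higher by 1.53 for miR-29c-3p, 1.47 for miR-29c-5p, 1.34 for miR-29b-3p and 1.28 for miR-29a-5p, but by 0.33 for miR-29a-3p. This library was also the most unusual overall. Its differences from the WT mean had an SD of 0.896 over all tested miRNAs, against 0.596 in KO replicate 1 and 0.538 in KO replicate 2, and 60 of 541 miRNAs were more than 1 log2 unit above the WT mean, against 9 in KO replicate 1 and 14 in KO replicate 2. Among all tested miRNAs, 25 had a larger difference than miR-29c-3p in this library and 148 a larger one than miR-29a-3p. In KO replicate 1 all 3 guides were below the WT mean, by -0.45 for miR-29a-3p, -0.35 for miR-29b-3p and -0.46 for miR-29c-3p, while miR-29a-5p (0.34) and miR-29c-5p (0.49) were above it. KO replicate 2 had the guides between -0.15 and -0.09 and these passengers at 0.95 and 0.35. The opposite signs of the guides and of miR-29a-5p and miR-29c-5p in KO replicates 1 and 2 did not recur in KO replicate 3. The other passengers did not share this pattern. miR-29b-1-5p, below the count filter, was under the WT mean in each KO library (-1.24, -0.35 and -1.38). miR-29b-2-5p was at 0.08, -0.22 and -0.37.

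**Figure D4:**
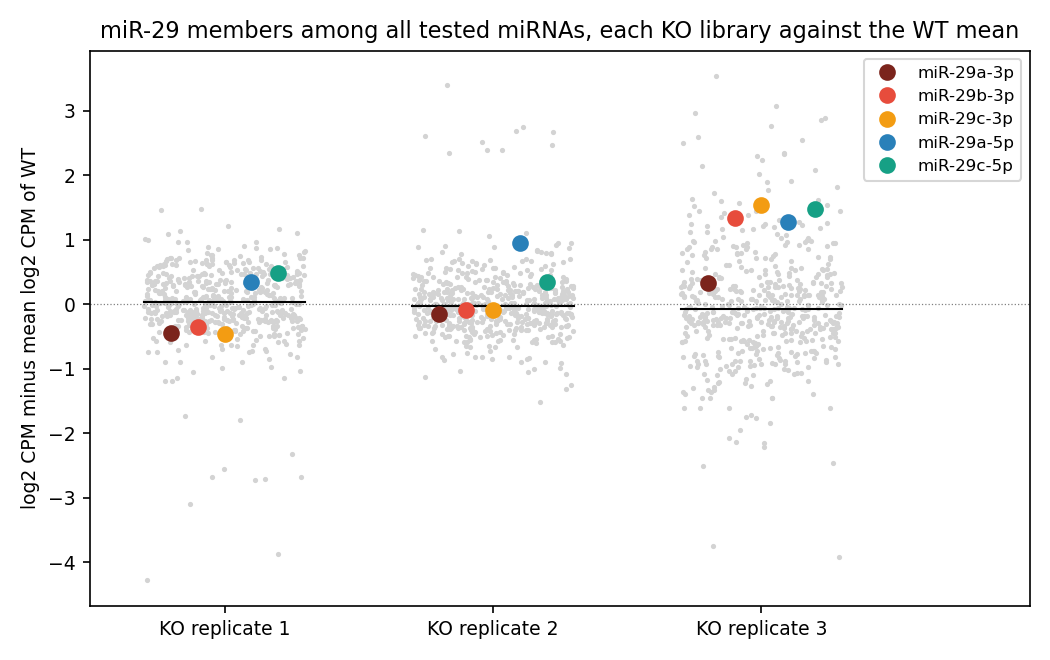
Difference in log2 CPM between each KO library and the mean of the WT libraries (vertical axis) for the 5 tested members (coloured) among all 541 tested miRNAs (grey, with their median as a line). In KO replicates 1 and 2 miR-29a-5p and miR-29c-5p lie above 0 and the guides below it, and in KO replicate 3 all 5 lie above 0.

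Marker miRNAs of other cell types were read in the same libraries. Those of choroid plexus (9 of 9 listed in the table, 6 tested, none at 0 in every library) summed to 1022, 1037 and 2119 CPM in the KO libraries, against 972, 1006 and 1047 CPM in the WT libraries, and were thus highest in KO replicate 3 like the miR-29b and miR-29c guides. Their most abundant member, miR-204-5p, had 765.8, 663.9 and 1621 CPM in the KO libraries, against 667, 683 and 743 CPM in the WT libraries. Epithelial and olfactory miRNAs (8 of 8 in the table) summed to 61.6, 2051 and 1996 CPM in the KO libraries, against 335, 169 and 724 CPM in the WT libraries. They were high in KO replicate 2 as well, where the guides were not. Of the other cell types, erythroid markers had their highest sum in KO replicate 3 (120.6 CPM there, against 75.4 to 99.4 CPM elsewhere). Marker sums of oligodendrocytes (632 CPM there, against 787 to 974 CPM elsewhere) and of neurons were lowest there. Those of the remaining cell types did not have their extreme there. Such sums follow the most abundant markers, and medians can differ. In KO replicate 3 the median log2 difference from the WT mean was 0.36 over the 8 tested neuronal markers. miR-128-3p, the most abundant of these, was at -0.21. The median there was 0.56 over the 5 of microglia and leukocytes and -0.17 over the 4 of oligodendrocytes. Log2 fold changes were above 0 for 6 of 6 tested markers of choroid plexus and 8 of 8 epithelial and olfactory ones. The same held for 5 of 5 endothelial and mural, 5 of 5 of microglia and leukocytes and 3 of 3 of muscle. It held for 3 of 4 erythroid, 5 of 8 neuronal, 1 of 4 of oligodendrocytes and 1 of 2 of meningeal fibroblasts. Over all tested miRNAs it held for 284 of 541 (52.5%), and 0 markers passed the adjusted threshold in edgeR. The epithelial and olfactory markers had a median log2 difference of -2.70 from the WT mean in KO replicate 1. Groups overlapped for all of them. In the lists where all were above 0, median log2 fold changes ran from 0.09 (muscle) to 1.87 (epithelial and olfactory). Meningeal fibroblast miRNAs, of a cell type rich in matrix, stayed between 12.4 and 16.7 CPM in KO and between 12.9 and 15.4 CPM in WT. The part of these cell types in the miR-29 values was not tested. In whole cortex, a change in the number of cells and a change in RNA per cell cannot be told apart.

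Over the 6 libraries the miR-29b and miR-29c guides varied together. The ratio of miR-29b-3p to miR-29c-3p was 5.69, 5.30 and 4.61 in the KO libraries, against 5.53, 5.16 and 5.19 in the WT libraries, so it moved by 1.23 times from lowest to highest while miR-29c-3p itself was highest in KO replicate 3. The ratio of miR-29a-3p to miR-29b-3p was 14.8, 15.2 and 7.84 in the KO libraries, against 15.2, 16.5 and 15.6 in the WT libraries. Pearson's r of log2 CPM over 6 libraries was 0.998 between miR-29b-3p and miR-29c-3p, 0.862 between miR-29a-3p and miR-29c-3p, 0.816 between both arms of miR-29c, and 0.391 between both arms of miR-29a. These are descriptions over points that share the scaling of the libraries, and KO replicate 3 holds the highest value of each of the 5 members. miR-29b-2-5p ran against its own guide (r = -0.710).

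**Figure D5:**
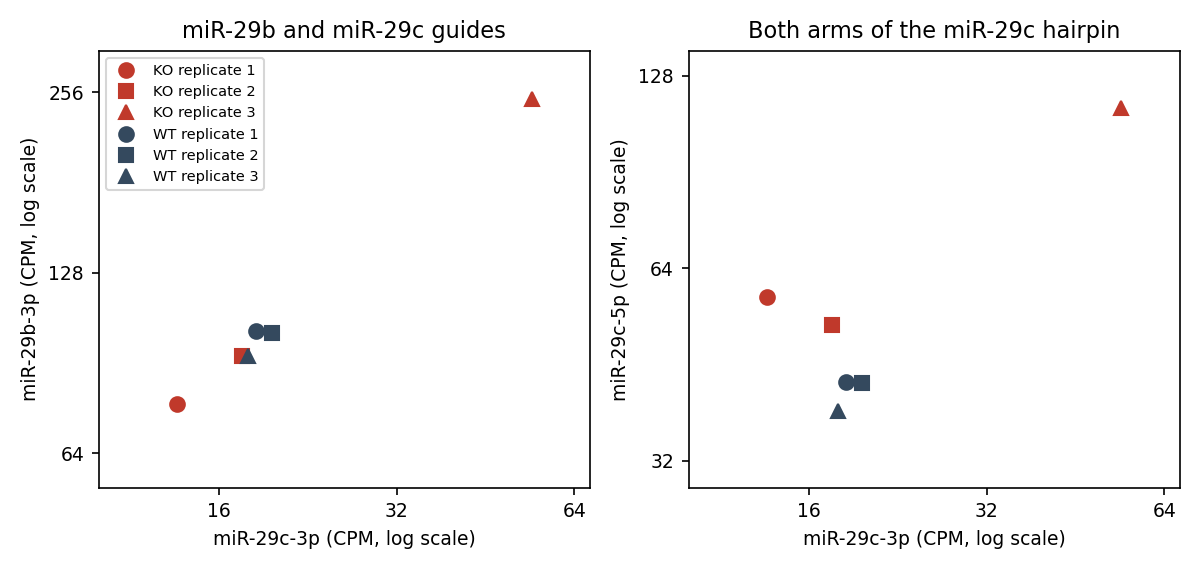
Level in CPM of miR-29b-3p (left) and miR-29c-5p (right) against miR-29c-3p, on log axes, for 3 KO and 3 WT libraries. On the left the libraries lie near 1 line, and on the right KO replicates 1 and 2 lie above the WT libraries at lower values of miR-29c-3p.

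The tested miRNAs most like each member were found by Pearson's r of log2 CPM over the 6 libraries, without a test. For both miR-29b-3p (r = 0.997 and 0.991) and miR-29c-3p (r = 0.995 and 0.989) they were miR-16-5p and miR-30b-5p. miR-16-5p, a regulator of the cell cycle, had 180.9, 198.6 and 393 CPM in the KO libraries, against 206, 208 and 198 CPM in the WT libraries, again highest in KO replicate 3. It is shown because its 5′ end resembles that of the guides.
miR-16-5p: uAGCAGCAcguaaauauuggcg
Its seed AGCAGCA is not that of miR-29. Its hairpins lie on chromosomes 3 and 14, apart from those of miR-29. miR-30b-5p had 48.8, 61.5 and 118.7 CPM in the KO libraries, against 61.0, 59.0 and 55.0 CPM in the WT libraries. For miR-29a-3p the nearest were miR-500-3p (r = 0.956) and miR-30d-3p (r = 0.956), both below 8 CPM. For miR-29a-5p they were miR-101a-3p (r = 0.954) and the neuronal miR-153-3p (r = 0.938). For miR-29c-5p they were miR-34c-3p (r = 0.988) and miR-431-5p (r = 0.979). In miR-34c-3p, itself one of the choroid plexus markers, the values were 2.66, 2.19 and 5.94 CPM in the KO libraries, against 2.03, 2.14 and 1.71 CPM in the WT libraries, so the groups did not overlap under TMM but did on total counts. None of these 8 passed the adjusted threshold, with adjusted p-values of at least 0.749 (edgeR).

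Other miRNAs linked to the same biology are described next. As 0 of 541 miRNAs passed the adjusted threshold, that none of these did says nothing particular about them. Of 5 tested miRNAs known from target-directed decay, as miR-29b is, 2 had higher and 3 lower values in KO, and 0 passed. The median log2 fold change was -0.01. In edgeR 1 of the 5 had an unadjusted p under 0.05, against 35 of 541 miRNAs (6.47%). Groups did not overlap for 2 of them, against 85 of 541 (15.7%). The most abundant of them, miR-7a-5p, whose decay is directed by the long noncoding RNA Cyrano, had 5713, 4410 and 4816 CPM in the KO libraries, against 6695, 6138 and 6831 CPM in the WT libraries. No KO library of miR-7a-5p reached a WT library, with a log2 fold change of -0.40 (SE 0.15, edgeR adjusted p = 0.705). Of 6 tested miRNAs linked to matrix and fibrosis, 2 had higher and 4 lower values, 0 passed, and the median was -0.06. Among them miR-21a-5p, which is induced in reactive glia, had 8150, 9429 and 8128 CPM in the KO libraries, against 8468, 9314 and 8913 CPM in the WT libraries. Of 9 tested miRNAs linked to p53, a pathway in which miR-29 also acts, 5 had higher and 4 lower values, 0 passed, and the median was 0.07. Of these, miR-34c-5p is also a choroid plexus marker. Their most abundant, miR-34c-5p, had 238, 351 and 468 CPM in the KO libraries, against 289.6, 308 and 284 CPM in the WT libraries (log2 fold change 0.26, SE 0.25, edgeR adjusted p = 0.802).

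The base composition of the members was low to average. GC content was 40.9% in miR-29a-3p, 34.8% in miR-29b-3p, 36.4% in miR-29c-3p and miR-29a-5p, and 50.0% in miR-29c-5p, where the median of tested miRNAs with a sequence (470 of 541) was 47.8%. Across those miRNAs, Spearman's rho between GC content and the difference from the WT mean was 0.129 in KO replicate 1, -0.336 in KO replicate 2 and -0.110 in KO replicate 3. The part of base composition in the miR-29 values was not tested.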

How the data were processed

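Small RNA libraries were made from total RNA of cortex by ligating adaptors to both ends, PCR and gel size selection, per the labels' protocols. The submitters' processing notes list Bowtie, DESeq2 and the mm10 build and give no settings. The sources used here do not state trimming, the miRBase release, mismatches, multi-mapping or strand. The authors deposited whole-number read counts per mature miRNA, and TPM values that are the count over the column total on a fixed scale, with no length term (largest deviation 4.9e-10). There were 0 columns of values without a sample. Column names carry an extra letter and were matched to titles by number. Genotype came from the labels, and replicate numbers follow accession order and only name libraries. Within a genotype, library pairs differed by a chi-square of at least 47.7 per degree of freedom, so none was a duplicate.

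The main test was that of edgeR 4.0.16 in R 4.3.3 on the counts (filterByExpr at a minimum count of 10, TMM, robust quasi-likelihood test). Arm ratios, as log2 with a pseudocount of 0.5, were tested in limma 3.58.1 over all hairpins with both arms. P-values were adjusted by Benjamini-Hochberg over each whole table at 0.05. DESeq2 1.42.0, limma-voom and limma on log2(TPM + 1), with a minimum mean TPM of 1 chosen after the files were seen, were alternatives. The functions were tested on simulated counts. Reads are not unique molecules. The members and the miRNA lists were chosen with earlier results of these data known. Text names are the members, the 2 miRNAs most like each, list leaders by mean CPM, and miR-29b-2-5p and miR-92b-5p, added after their values or sequences were seen. Sequences and positions are from RefSeq on GRCm38.p6, and gene overlaps from GENCODE M21 on GRCm38, the assembly of mm10.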

Additional observations from a re-analysis of the deposited data

How the results depend on the processing

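No paired analysis was possible because the labels give the genotypes no shared replicate numbers. No member and no miR-29 arm ratio passed the adjusted threshold under any alternative run: 3 other scalings, no count filter, DESeq2, limma-voom, limma on TPM, miR-29a-3p and miR-29c-3p counted as 1 feature, another pseudocount or filter for arm ratios, limma without robust estimation, and each library left out. Over the 8 alternatives that kept all libraries, log2 fold changes ranged from -0.11 to -0.01 for miR-29a-3p, 0.28 to 0.56 for miR-29b-3p, 0.72 to 0.94 for miR-29a-5p and 0.74 to 0.91 for miR-29c-5p, and over 7 from 0.30 to 0.66 for miR-29c-3p. With 1 library left out they ranged from -0.27 to 0.12 for miR-29a-3p, -0.20 to 0.81 for miR-29b-3p, -0.25 to 0.96 for miR-29c-3p, 0.69 to 1.13 for miR-29a-5p and 0.43 to 1.04 for miR-29c-5p. The sign changed for miR-29a-3p without KO replicate 1 (0.12) and without WT replicate 2 (0.03), and for miR-29b-3p (-0.20), miR-29c-3p (-0.25) and the miR-29b-2 arm ratio (0.15) without KO replicate 3. The arm ratio difference of miR-29a ranged from 0.86 to 1.03, that of miR-29c from 0.19 to 0.69 and that of miR-29b-2 from -0.92 to 0.15. Their causes were not tested. Over left-out libraries, 0 to 18 miRNAs passed the adjusted threshold, the 18 without KO replicate 3. The number of miRNAs with an unadjusted p under 0.05 was 14 without WT replicate 2 and 97 without KO replicate 3, 18 with total counts, 56 of 1182 without the filter and 19 on TPM, and 7 to 30 hairpins by arm ratio. The summed guide level ranged from 1375 to 1889 CPM in KO and from 1618 to 1735 CPM in WT. The 95% interval reached 0.635 log2 units to either side in the median tested miRNA, and from 0.477 (miR-29a-3p) to 1.09 (miR-29c-3p) in the members.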
